A study of Mus musculus with 2 samples.

Results

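The Mir181 family was followed through small RNA libraries of the embryonic mouse forebrain. It consists of 6 microRNA genes in 3 clusters of 2 neighbouring genes, Mir181a-1 with Mir181b-1 on chromosome 1, Mir181a-2 with Mir181b-2 on chromosome 2, and Mir181c with Mir181d on chromosome 8. The members were chosen by gene name, and all 6 were among the 1973 microRNA genes of the deposited tables. Forebrain had been dissected at embryonic day 13.5 from the mouse strain B6NCrl, with male and female embryos combined, and RNA shorter than 30 nucleotides had been sequenced. The 2 libraries are biological replicates 1 and 2 of 1 group of healthy embryos, so the data allow a description of levels and a comparison of the libraries, but no comparison of conditions. They come from separate biosamples with a shared donor identifier, and the labels do not tell how embryos were divided between them. The spread between them may therefore be technical in part.

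A microRNA gene is transcribed as a longer RNA that folds into a hairpin. Cutting of the hairpin releases 2 short arms, called 5p and 3p after the side they come from, and an arm bound by an Argonaute protein represses messenger RNAs that pair with its seed, bases 2 to 8 from the 5′ end. The miR-181 family is best known from developing lymphocytes, where miR-181a tunes the sensitivity of the T cell receptor, and its members are also expressed in neurons and glia of the developing and adult brain.

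The mature sequences are shown because they decide which reads can be told apart. Each line gives 1 arm from the RefSeq table for GRCm38.p6, 5′ to 3′, with the seed in capitals. All 6 genes were matched to that table by symbol.
miR-181a-5p: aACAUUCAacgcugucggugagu
miR-181b-5p: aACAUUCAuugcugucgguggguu
miR-181c-5p: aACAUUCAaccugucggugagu
miR-181d-5p: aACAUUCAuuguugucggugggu
miR-181a-1-3p: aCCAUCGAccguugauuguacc
miR-181a-2-3p: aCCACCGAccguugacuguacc
miR-181c-3p: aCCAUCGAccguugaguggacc
miR-181b-1-3p: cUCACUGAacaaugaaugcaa
miR-181b-2-3p: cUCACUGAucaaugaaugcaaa
miR-181d-3p: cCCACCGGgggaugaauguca

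The 4 different 5p arms carried the same seed, and no other mature arm among the 1679 in the table had it. Outside the seed, with positions counted from 1 at the 5′ end of the first-named arm, miR-181b-5p differed from miR-181a-5p by A9U, C10U and A21G and was longer by 1 base. The arm miR-181d-5p differed from miR-181b-5p by C12U and was shorter by 1 base. An alignment of miR-181c-5p with miR-181a-5p needed no substitution and a gap of 1 base. The 3p arms were more varied, with 4 seeds among 6 arms. miR-181a-1-3p shared its seed with miR-181c-3p, and miR-181b-1-3p with miR-181b-2-3p. miR-181a-2-3p, which differed from miR-181a-1-3p by U5C and U16C, had a seed of its own, as did miR-181d-3p.

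Thus 4 of the 6 genes yield a 5p arm that another gene of the family yields as well. Their hairpins are shown next, with both arms in capitals, because they mark how far a read can extend before it belongs to 1 gene.
Mir181a-1: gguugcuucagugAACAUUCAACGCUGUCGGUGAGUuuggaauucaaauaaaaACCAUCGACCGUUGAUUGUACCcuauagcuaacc
Mir181a-2: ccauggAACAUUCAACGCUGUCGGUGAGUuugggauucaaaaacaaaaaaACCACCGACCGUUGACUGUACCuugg
Mir181b-1: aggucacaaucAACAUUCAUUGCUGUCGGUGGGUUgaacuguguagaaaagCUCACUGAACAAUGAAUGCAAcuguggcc
Mir181b-2: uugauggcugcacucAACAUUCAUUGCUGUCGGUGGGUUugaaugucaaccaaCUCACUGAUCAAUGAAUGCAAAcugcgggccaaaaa

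The hairpins of Mir181a-1 and Mir181a-2 shared an unbroken stretch of 28 bases, which began 1 base before miR-181a-5p and ended 4 bases after it. Those of Mir181b-1 and Mir181b-2 shared 26 bases, from 2 bases before miR-181b-5p to its last base. A read lying inside such a stretch matches both genes, and the tables list multi-mapped reads separately from all genes, at 4315754 reads (40.6% of the library) in replicate 1 and 4589546 (43.9%) in replicate 2. How many of them are miR-181 reads cannot be read from the tables, and neither can the arm from which a counted read came. The counts of these 4 genes are for that reason uncertain as measures of the RNA. Neither arm of Mir181c or of Mir181d is identical to an arm of another gene.

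On mm10 (GRCm38), Mir181a-1 (ENSMUSG00000065565.1) lies on the plus strand of chromosome 1 at 137966455 to 137966541, and Mir181b-1 (ENSMUSG00000065458.1) at 137966639 to 137966718, separated by 97 bases. GENCODE M21 places both in an exon of the long noncoding gene A430106G13Rik. The same annotation also has both in introns of Gm4258 on their own strand and of Gm26936 on the opposite strand. Mir181a-2 (ENSMUSG00000065423.1, chromosome 2, 38852735 to 38852810) and Mir181b-2 (ENSMUSG00000065578.1, 38853830 to 38853918), 1019 bases apart on the plus strand, lie within an intron of Nr6a1, an orphan nuclear receptor gene on the opposite strand. RefSeq also has them within the long noncoding gene Nr6a1os, which GENCODE M21 places on their own strand but ends 364 bases before Mir181a-2. This is the most widely spaced of the 3 pairs. Mir181c (ENSMUSG00000065483.1, chromosome 8, 84178873 to 84178961) and Mir181d (ENSMUSG00000076338.1, 84178716 to 84178787) are 85 bases apart on the minus strand, in an intron of a transcript of Nanos3, a germ cell RNA-binding protein gene. Mir23a lies 29556 bases from Mir181c on the other strand.

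Reads counted on microRNA genes numbered 4117752 in replicate 1 and 3908953 in replicate 2, or 38.7% and 37.4% of all reads. Levels are given as CPM, the count per 1000000 reads counted on genes, so that a single count is worth 0.243 CPM in replicate 1 against 0.256 CPM in replicate 2. Detection required 10 or more counts in both libraries, and 377 of the 1973 genes met it. The median mean CPM of the detected genes was 137. All 6 members were detected on their own strand, and each had 0 reads on the opposite strand in both libraries, which allows up to 3 counts. Among microRNAs of neural progenitors and neurons, Mir92b stood at 13430 ± 660 CPM (SD, n = 2), Mir137 at 7852 ± 1559 CPM and Mir9-3 at 738 ± 22.2 CPM. Mir9-2, the other measured miR-9 gene, stood at only 4.73 ± 0.178 CPM. The 3 genes of the neuronal miR-124 were near the detection limit, with means from 0.748 to 4.86 CPM. Being copies of 1 microRNA, they may have reads among the multi-mapped ones. Mir9-2 and Mir9-3 have both arms in common with other genes. These values therefore do not measure how much miR-124 or miR-9 was present.

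Together the 6 genes held 138627 counts in replicate 1 and 127510 in replicate 2. Their share of the gene counts was 3.37% (3.35 to 3.38, 95% Wilson interval) in replicate 1 and 3.26% (3.24 to 3.28) in replicate 2, a mean of 3.31% ± 0.0739 (SD, n = 2). Intervals here reflect counting error of reads alone. PCR copies of a molecule are counted as separate reads, so the intervals may be too narrow even for the sampling of molecules. Within the family the chromosome 8 cluster made up 69.9% and 70.4% of the counts, the chromosome 1 cluster 18.6% and 20.1%, and the chromosome 2 cluster 11.5% and 9.50%. The order of the clusters was the same in both libraries. Multi-mapped reads are missing from the chromosome 1 and chromosome 2 clusters, so these are shares of counted reads and not of RNA.

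Mir181c had the most counted reads of the members. It had 61962 counts in replicate 1 and 59223 in replicate 2, or 15047 and 15151 CPM (mean 15099 ± 72.9, n = 2). It ranked 16 among all genes in either library and held 45.6% ± 1.24 of the family's counts. Its neighbour Mir181d had 34896 and 30526 counts, or 8475 and 7809 CPM (mean 8142 ± 470), and ranked 23 in either library. These are the members whose arms are unique, and they led the family in counted reads in both libraries. Multi-mapped reads are missing from the counts of the other members, so this lead does not rank the RNAs.

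Mir181a-1, a gene of miR-181a, had 25619 and 25538 counts, or 6222 and 6533 CPM (mean 6377 ± 220). Mir181b-2, a gene of miR-181b, had 14603 and 9937 counts, or 3546 and 2542 CPM (mean 3044 ± 710). Each of these led its own cluster. Mir181a-2, the second source of miR-181a, had 1389 and 2175 counts, or 337 and 556 CPM (mean 447 ± 155). Mir181b-1, the second source of miR-181b, had 158 and 111 counts, or 38.4 and 28.4 CPM (mean 33.4 ± 7.05), which was below the median of detected genes. In counted reads the chromosome 1 cluster was thus led by its a gene, and the chromosome 2 cluster by its b gene.

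The order Mir181c, Mir181d, Mir181a-1, Mir181b-2, Mir181a-2, Mir181b-1 held in both libraries, and no neighbours in it overlapped between the libraries. With 2 libraries this is a description with no test. The closest neighbours were Mir181d and Mir181a-1, at ratios of 1.36 in replicate 1 and 1.20 in replicate 2. From the highest to the lowest member the ratio was 392 in replicate 1 and 534 in replicate 2. These are differences in reads counted, and unequal capture of different RNAs, if common to the libraries, is not part of the SD. Multi-mapped reads are missing from the genes that share an arm, so this order does not rank the RNAs.

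**Figure D1:**
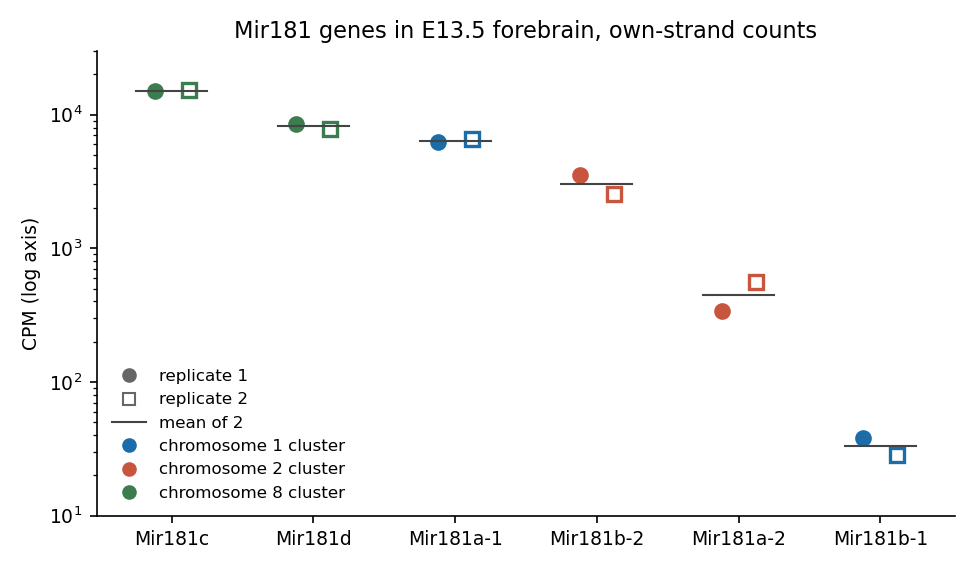
Level of each Mir181 gene in CPM on a log axis, with filled circles for replicate 1, open squares for replicate 2 and a line for their mean, coloured by cluster. Mir181c stands at 15099 CPM and Mir181b-1 at 33.4 CPM, and the symbols of Mir181a-2 and Mir181b-2 lie in opposite order.

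Genes closest to a member in level were found by the distance of log2(CPM + 1) over the 2 libraries, which measures likeness of level in 1 tissue only. Nearest to Mir181c were Mir106b (distance 0.08) and Mir322 (0.10). Nearest to Mir181d were Mir342 (0.20) and Mirlet7d (0.22), and to Mir181a-1 Mir151 (0.06) and Mir18 (0.16). Mir181b-2 was nearest to Mir431 (0.15) and Mir381 (0.16), Mir181b-1 to Mir216b (0.20) and Mir208b (0.24), and Mir181a-2 to Mir185 (0.33) and Mir101a (0.42). Mir181a-2 therefore had the most distant nearest gene of the members.

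Other families with several genomic copies gave a scale for these levels. The Mir30 family, 6 genes, held 3.58% ± 0.0710 of the gene counts (n = 2), the Mir26 family, 3 genes, 1.75% ± 0.141, and the measured genes of the Mir23-27-24 clusters, 5 in number, 1.19% ± 0.0588. In counted reads the Mir181 family, at 3.31% ± 0.0739, was below Mir30 and above Mir26 and Mir23-27-24 in both libraries. These shares leave out multi-mapped reads, which may take unlike parts of the families, and Mir24-1 was not measured here. They do not rank the families by the amount of RNA in the tissue. The ratio of the highest to the lowest mean CPM was 452 for Mir181, 632 for Mir30, 2379 for Mir26 and 69.5 for Mir23-27-24.

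Over all detected genes, the 45 with a mature arm identical to that of another gene had a median of 182 CPM, and the 296 with no such arm 143 CPM. Within the compared families such genes were lower than the leading gene. In Mir30, where Mir30b and Mir30d have no arm entry and 4 of 6 genes could be sorted, the genes with an identical arm were Mir30c-1 (71.4 ± 8.97 CPM) and Mir30c-2 (31.9 ± 5.22 CPM), against Mir30e at 20154 ± 145 CPM. In Mir26 they were Mir26a-1 (7.34 ± 0.611 CPM) and Mir26a-2 (36.5 ± 8.04 CPM), against Mir26b at 17459 ± 1400 CPM. In the Mir23-27-24 clusters the gene of this kind was Mir24-2 (91.5 ± 10.9 CPM). Among the genes with no identical arm it was close to Mir27a (85.6 ± 13.2 CPM). It was below Mir27b (500 ± 26.7 CPM), Mir23a (5318 ± 94.1 CPM) and Mir23b (5945 ± 733 CPM). Mir181a-1 and Mir181b-2 were high for such genes. Among the 45 genes Mir181a-1 ranked 1 and Mir181b-2 ranked 4, with Mir92-1 (4899 ± 125 CPM) and Mir16-1 (4354 ± 366 CPM) between them. Mir181a-2 ranked 15 and Mir181b-1 ranked 34. The 4 Mir181 genes held 31.2% ± 0.804 of the counts of all 45.

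**Figure D2:**
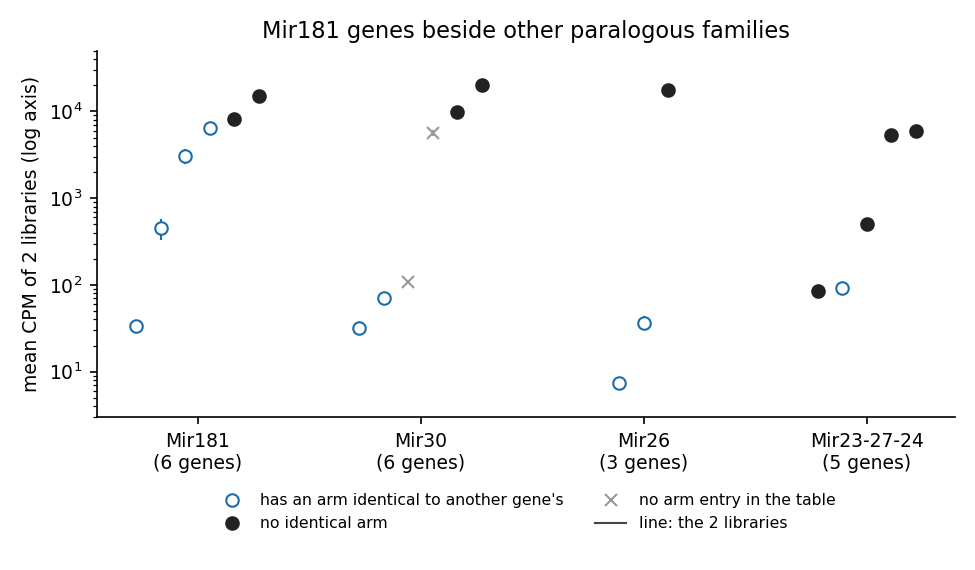
Mean CPM of 2 libraries on a log axis for the genes of Mir181 and of 3 other families, with open circles for genes that have a mature arm identical to another gene's, filled circles for genes that have none, and crosses for genes with no arm entry in the RefSeq table. The open circles of Mir30 and Mir26 lie below 100 CPM, and those of Mir181 spread from 33.4 to 6377 CPM.

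Clustered microRNA genes are often cut from a shared primary transcript, and the ratio of their reads does not depend on how libraries are scaled. Mir181a-1 exceeded Mir181b-1 by 162-fold in replicate 1 and 230-fold in replicate 2 (mean 196 ± 48.0, n = 2). Mir181b-2 exceeded Mir181a-2 by 10.5-fold and 4.57-fold (mean 7.54 ± 4.20). Mir181c exceeded Mir181d by 1.78-fold and 1.94-fold (mean 1.86 ± 0.116). In counted reads Mir181c and Mir181d thus formed the least uneven pair, and Mir181a-1 and Mir181b-1 the most uneven. The genes of the more uneven pairs are those that share a 5p arm with another gene of the family. Multi-mapped reads are missing from their counts, so these ratios do not measure the balance of the RNAs. The part of the missing reads in them was not tested. Across 111 pairs of same-strand neighbouring microRNA genes with starts within 10 kb and both detected, the median ratio of the higher to the lower gene was 8.33-fold, and 13 pairs, Mir181a-1 and Mir181b-1 among them, reached the ratio of that pair or more.

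The chromosome 2 pair changed its balance of counted reads between the libraries, with the same limit of missing multi-mapped reads. Of the reads counted on Mir181a-2 and Mir181b-2 together, Mir181a-2 had 8.69% in replicate 1 (8.26 to 9.13, 95% Wilson interval) and 18.0% in replicate 2 (17.3 to 18.7). On the log2 scale the ratio of Mir181b-2 to Mir181a-2 was lower by 1.20 in replicate 2. The ratio of Mir181a-1 to Mir181b-1 moved by 0.50, on 158 and 111 counts of Mir181b-1, and that of Mir181c to Mir181d by 0.13. The median movement over the 111 pairs was 0.18, and only the pair of Mir144 and Mir451a, at 2.51, moved more than the chromosome 2 pair. Among the 27 pairs with at least 1000 counts of each gene in each library, a limit chosen after the values were seen, the chromosome 2 pair moved most, and the largest movement of another pair was 0.38.

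**Figure D3:**
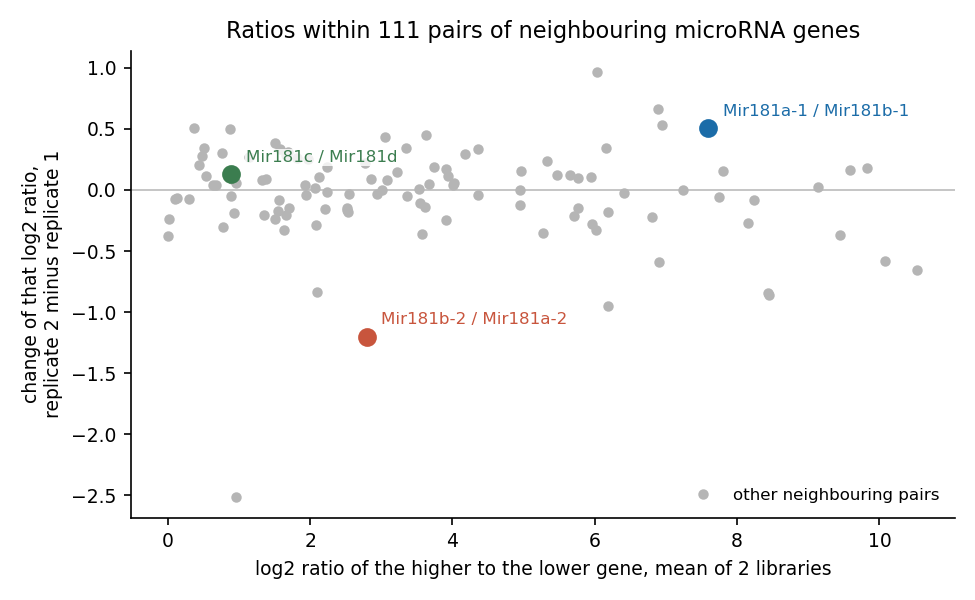
Each point is a pair of neighbouring microRNA genes, placed by the log2 ratio of its higher to its lower gene (mean of 2 libraries) and by the change of that log2 ratio from replicate 1 to replicate 2. Mir181b-2 over Mir181a-2 lies at a change of -1.20, below all grey points but that of Mir144 and Mir451a, and Mir181c over Mir181d lies near 0.

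Gene by gene, the libraries were compared by a two-sided exact binomial test on the counts of all genes, with TMM library sizes and Benjamini-Hochberg adjustment. The test compares these 2 libraries and covers counting error only. Of 475 genes tested, 38.9% passed at an adjusted p under 0.05, 18.1% higher and 20.8% lower in replicate 2. Of the 6 members 4 passed, 3 higher and 1 lower. At the counts of this family small ratios pass, as Mir181c did at a log2 ratio of 0.12.

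Both genes of the chromosome 2 cluster passed, in opposite directions. Mir181a-2 was higher in replicate 2 by a log2 ratio of 0.83 (95% exact interval 0.73 to 0.93, exact binomial adjusted p = 1.43e-63). Mir181b-2 was lower, at -0.37 (-0.41 to -0.33, exact binomial adjusted p = 3.54e-87). For Mir181a-2, 5.57% of the detected genes had a ratio of that size or more, and among the 202 detected genes with a mean of at least 100 CPM, a limit chosen after the values were seen, its ratio was the highest upward, ahead of Mir143 at 0.47, and the third in size in either direction, the lowest being Mir182 at -0.94. For Mir181b-2, 25.5% of the detected genes had a ratio of its size or more.

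Mir181a-1 was higher at 0.18 (0.15 to 0.20, exact binomial adjusted p = 1.21e-43) and Mir181c at 0.12 (0.10 to 0.13, exact binomial adjusted p = 3.36e-45). Mir181d, at -0.01 (-0.03 to 0.01), and Mir181b-1, at -0.32 (-0.69 to 0.03), did not pass (exact binomial adjusted p = 0.578 and 0.157). Library totals in place of TMM lowered every ratio by 0.11. Mir181c was then at 0.01 and no longer passed (exact binomial adjusted p = 0.387), while Mir181d at -0.12 (exact binomial adjusted p = 1.38e-24) and Mir181b-1 at -0.43 (exact binomial adjusted p = 0.0376) did. Taking these same libraries as replicates, edgeR estimated a biological coefficient of variation of 14.3%. With that dispersion its exact test called 0 of the 6 members and 1 of the 475 genes. An unadjusted p under 0.05 was reached by 1 member and 31 genes. The dispersion takes in the difference being tested, so few calls were largely set beforehand, and no conclusion is drawn from them.

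**Figure D4:**
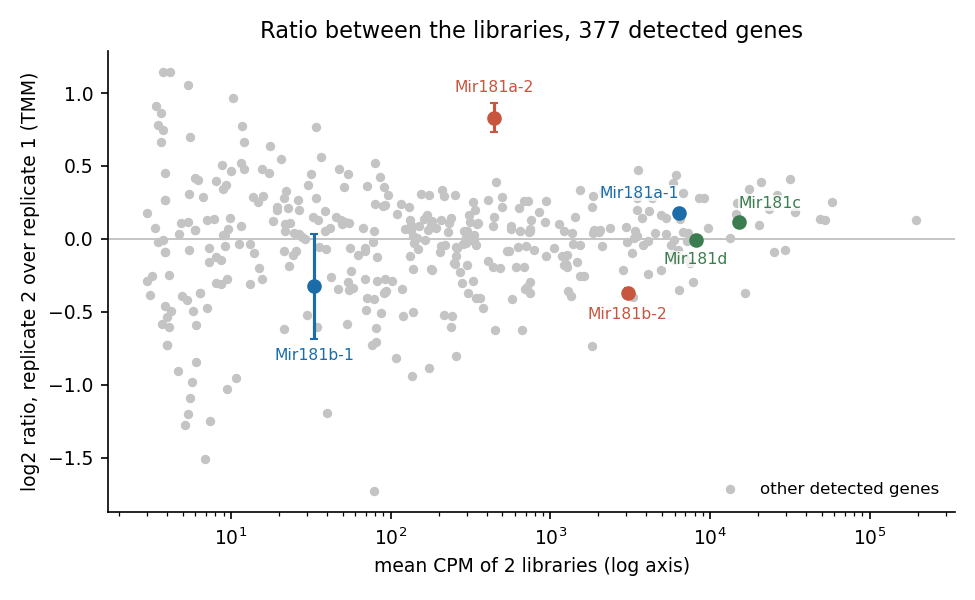
Log2 ratio of replicate 2 over replicate 1 after TMM scaling against mean CPM (log axis) for the 377 detected genes, with the Mir181 genes coloured by cluster and bars for their exact 95% intervals. Mir181a-2 lies at 0.83, above every other detected gene with at least 100 CPM, and Mir181c, Mir181d and Mir181a-1 lie between -0.01 and 0.18.

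Other microRNAs known from neural differentiation included genes higher and genes lower in replicate 2. Of 10 tested genes of the neural list, 2 passed higher and 3 lower, near the 18.1% and 20.8% of all genes tested, and the median log2 ratio of the 9 detected ones was 0.05, against 0.03 over all detected genes. Mir137, a regulator of neural progenitors, was lower at -0.30, and Mir125b-1 higher at 0.32. Mir128-1 and Mir128-2, the brain-enriched miR-128 genes on separate chromosomes, were lower at -0.37 and -0.41. Mir125b-1, Mir128-1 and Mir128-2 each have an arm identical to another gene's. Multi-mapped reads may be missing from their counts, so these ratios do not measure changes of miR-125b or miR-128. Reads of Mir9-1 were not analysed here.

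Since miR-181 is abundant in lymphoid cells, microRNAs of blood and microglia were read beside the family. The 5 measured markers were all detected and together held 0.0424% of the gene counts in replicate 1 and 0.0355% in replicate 2. Mir142, also on the list, was not measured here and is not part of this share. The lymphoid microRNA Mir150 stood at 17.4 ± 2.93 CPM and the leukocyte microRNA Mir155 at 163 ± 9.33 CPM. Between the libraries Mir144 and Mir223 were higher in replicate 2 (0.77 and 0.30), Mir451a was lower (-1.73), and Mir150 and Mir155 did not pass, at 0.45 and -0.01. Endothelial Mir126a, at 17435 ± 1970 CPM, was higher at 0.34. Their part in the levels of the Mir181 genes was not tested. In tissue of this kind, more cells with a microRNA and more of it per cell cannot be told apart.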

How the data were processed

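Small RNA of 2 forebrain libraries had been sequenced. The authors deposited whole-number counts of reads per microRNA gene, with 3 count columns per table (either strand, own strand, opposite strand) and 4 summary rows, on mm10 with GENCODE M4, per the file headers and read-me texts. Counts came from an aligner and a counter, both not given in the sources used here. Own-strand counts were used; the summary rows entered neither library sizes nor tests (in replicate 1 16.7% unmapped, 40.6% multi-mapped and 3.99% unassigned, in replicate 2 15.0%, 43.9% and 3.71%). Names and positions came from GENCODE M21 (1894 identifiers matched, 79 did not; Mir181c has a later version there), sequences from the RefSeq table (GRCm38.p6). Size factors came from edgeR 4.0.16 and DESeq2 1.42.0 in R 4.3.3; tests used scipy 1.17.1, with a prior count of 0.5 in ratios and at least 10 counts in the libraries together. The binomial script was tested on simulated counts with counting error only, so that check does not cover further variation between libraries. Named genes were the members, the 2 genes nearest to each in level, leading genes of the compared lists and genes sharing a seed or lying nearby; other genes, such as Mir92-1, Mir16-1, Mir144, Mir143 and Mir182, were named after their values were seen. Members, lists and tests were chosen with earlier results of these data known. Alternatives were other scalings, denominators, filters, strand columns and the edgeR exact test.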

Additional observations from a re-analysis of the deposited data

How the results depend on the processing

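Relative to 1000000 reads of the whole library in place of gene counts, the levels were 5747 for Mir181c, 3101 for Mir181d, 2427 for Mir181a-1, 1162 for Mir181b-2, 169 for Mir181a-2 and 12.7 for Mir181b-1, in the same order, and the family held 1.26% of the reads. Without the most abundant gene in the denominator its share was 4.12%. With counts on either strand, Mir181c stood at 14792 CPM, a change larger than its SD of 72.9. With the estimated dispersion, edgeR's exact test called 0 members in place of 4. That dispersion takes in the difference being tested, so this result was largely set beforehand. The number of members called was 5 with DESeq2 size factors, beside 185 of 475 genes, and 5 with library totals, beside 195 of 475. It was 4 with no filter, beside 154 of 1973 genes, and 4 with at least 10 counts in each library, beside 180 of 377. With either-strand counts it was 4, beside 192 of 489 genes. The share of all genes called thus changed with the filter. Over the scalings tried, Mir181a-2 stayed between 0.72 and 0.83 and Mir181b-2 between -0.48 and -0.37. No direction of a member's ratio reversed under these settings. Ratios within clusters could not change under either-strand counts, since no member had reads on the opposite strand. With 1 added count they moved by less than their SD. Leaving out a replicate gives the other library's value with no test, and no test between libraries is then possible. Alternatives for the change of balance within clusters were chosen after seeing the data. No paired analysis was possible because the libraries form 1 group. Depth limits Mir181b-1 most, with 158 and 111 counts.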
